A study of Rattus norvegicus with 46 samples.

Results

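Described here are 10 genes that are read as markers of the choroid plexus and of the meninges, the tissues that border the brain. They are Ttr, Folr1, Prlr, Enpp2, Igf2 and Igfbp2, which choroid plexus epithelium makes, and Col1a1, Col1a2, Col3a1 and Dcn, which fibroblasts of the meninges make. The list was given, and a probe set (a group of short probes for 1 transcript on the array) was taken as a member where the platform table pairs it with only that gene's symbol. This gave 17 of the 15866 probe sets that are not array controls, and 10 of 10411 symbols. The probe set with the highest mean stood for each gene.

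Frontal lobe pieces of about 30 mg came from male F344 rats aged 11 to 12 weeks, 96 hours after 1 dose of chlorpyrifos or of vehicle. Chlorpyrifos is an organophosphate insecticide that acts, once oxidised in the body, on acetylcholinesterase. All animals share strain, sex, age range and time. The study ran as 3 experiments called A, B and C, and each had its own vehicle animals. The arrays used from experiment A were 3 of vehicle, 3 of 1 mg/kg, 5 of 10 mg/kg and 3 of 50 mg/kg. Those from experiment B were 4 of vehicle, 3 of 0.5 mg/kg, 1 of 5 mg/kg and 3 of 30 mg/kg. Those from experiment C were 3 of vehicle, 4 of 1 mg/kg, 3 of 5 mg/kg and 4 of 10 mg/kg. Animals are named below by the numbers in their titles. In experiment C the labels call 3 arrays a first repeat (vehicle animal 1, 10 mg/kg animals 2 and 3) without saying what was repeated, and a second description line of the vehicle animals of B names 1 mg/kg against their titles.

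The choroid plexus is a sheet of epithelium inside the ventricles that secretes cerebrospinal fluid and exports carrier and growth factor proteins into it. The meninges are the fibroblast layers around the brain, rich in fibrillar collagen. Neither belongs to the cortex itself, so dissected pieces can differ in how much of these borders they include. Whether the pieces here did so was not tested. In bulk tissue, fewer cells of a type and less RNA per cell cannot be told apart.

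Of 46 deposited arrays, 39 share 1 order of probe sets, with pairwise correlations of log2 intensity of 0.935 to 0.979. The other 7 correlate with them at -0.0068 to 0.0025 and were left out. Median intensity per array ran from 112.2 to 285.6 before normalization. The lowest was that of the single 5 mg/kg array of B, and the next lowest was 228.3. Precision is limited by how many arrays there are. The mean log2 level of 6 genes chosen for cortex neurons was 10.96 or higher on every array. A mean does not show that each gene was present, and no detection calls were given. Mean levels of genes chosen for other regions varied more, from 7.86 to 11.38 for striatum and from 6.35 to 12.01 for hypothalamus. Levels below are log2 normalised intensities, which cannot be set against those of another gene. Whether the animals were handled or dissected separately is not stated beyond their numbers, so p-values measure only the spread between these arrays.

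The table of RefSeq promoters (build GRCr8) held entries for Ttr, Prlr, Igf2, Igfbp2 and Col1a2. It held none for Folr1, Enpp2, Col1a1, Col3a1 or Dcn. The windows of Ttr, which marks the plexus, and of Col1a2, the collagen that had one, are shown since these genes stand for the 2 tissues. Each runs from 250 bases before to 50 bases after the annotated start, at chr18:12218508-12218807 and chr4:33518307-33518606, both on the plus strand. The Ttr gene as annotated begins earlier, at 12216684, so its window belongs to a start inside the gene. Sequence at the earlier position was not searched. The Col1a2 gene begins at 33518557, within its window. Capitals mark matches to a CCAAT box, which reads ATTGG when it lies on the other strand, and to the motif TATAAA, both strands having been searched.
Ttr: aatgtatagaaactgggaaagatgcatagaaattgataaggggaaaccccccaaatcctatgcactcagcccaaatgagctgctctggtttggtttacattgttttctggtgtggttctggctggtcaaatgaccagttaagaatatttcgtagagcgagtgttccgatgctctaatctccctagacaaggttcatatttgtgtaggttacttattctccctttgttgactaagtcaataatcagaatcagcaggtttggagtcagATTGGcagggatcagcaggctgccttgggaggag
Col1a2: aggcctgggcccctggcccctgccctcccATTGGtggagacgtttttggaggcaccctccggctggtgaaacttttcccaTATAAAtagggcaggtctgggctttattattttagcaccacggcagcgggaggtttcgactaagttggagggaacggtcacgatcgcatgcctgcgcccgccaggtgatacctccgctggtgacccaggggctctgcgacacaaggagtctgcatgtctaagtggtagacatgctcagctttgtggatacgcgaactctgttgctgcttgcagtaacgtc
The Ttr window held 1 CCAAT match, on the minus strand, 17 bases from the start. The Col1a2 window held 1 CCAAT match on the minus strand at -221 and 1 TATAAA match on the plus strand at -170. CCAAT occurs in 37.5% and TATAAA in 14.2% of 33469 promoter windows of 300 bases. Neither window held TAATCC, a core letter string bound by OTX factors, or TGTTTAC, one bound by forkhead factors, which 7.17% and 3.78% of the windows hold. None of the 4 motifs was found in the Prlr, Igf2 or Igfbp2 windows. These are letter matches only.

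Ttr encodes transthyretin, the thyroxine and retinol-binding protein carrier that plexus epithelium secretes in bulk. Its level fell into separate ranges. On 6 arrays it lay at 13.43 to 13.92, and on the other 33 at 6.72 to 11.38, with a median of 8.04 and a gap of 2.05 between the ranges. The 6 arrays were animal 3 at 10 mg/kg in A (13.68), and in C vehicle animal 3 (13.92), 1 mg/kg animal 3 (13.85), 5 mg/kg animals 3 and 4 (13.92 each) and 10 mg/kg animal 4 (13.43). Counted by experiment they were 1 of 14 arrays in A, 0 of 11 in B and 5 of 14 in C. A vehicle animal is among them. All 6 carry animal number 3 or 4, but so do many of the other 33 arrays, in B as well as in A and C. Whether the numbers mark an order of handling was not tested. On these arrays Ttr ranked 5, 1, 2, 1, 1 and 18 of all probe sets, and because quantile normalization fixes the highest values by rank, differences among the 6 carry little information. Ttr in the deposited units ran from 10251.6 to 15505.4 there. Below the gap, 4 arrays had the next highest Ttr: 11.38 in 10 mg/kg animal 1 and 10.90 in 1 mg/kg animal 2 of C, 10.13 in vehicle animal 3 and 9.90 in 1 mg/kg animal 1 of A.

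**Figure D1:**
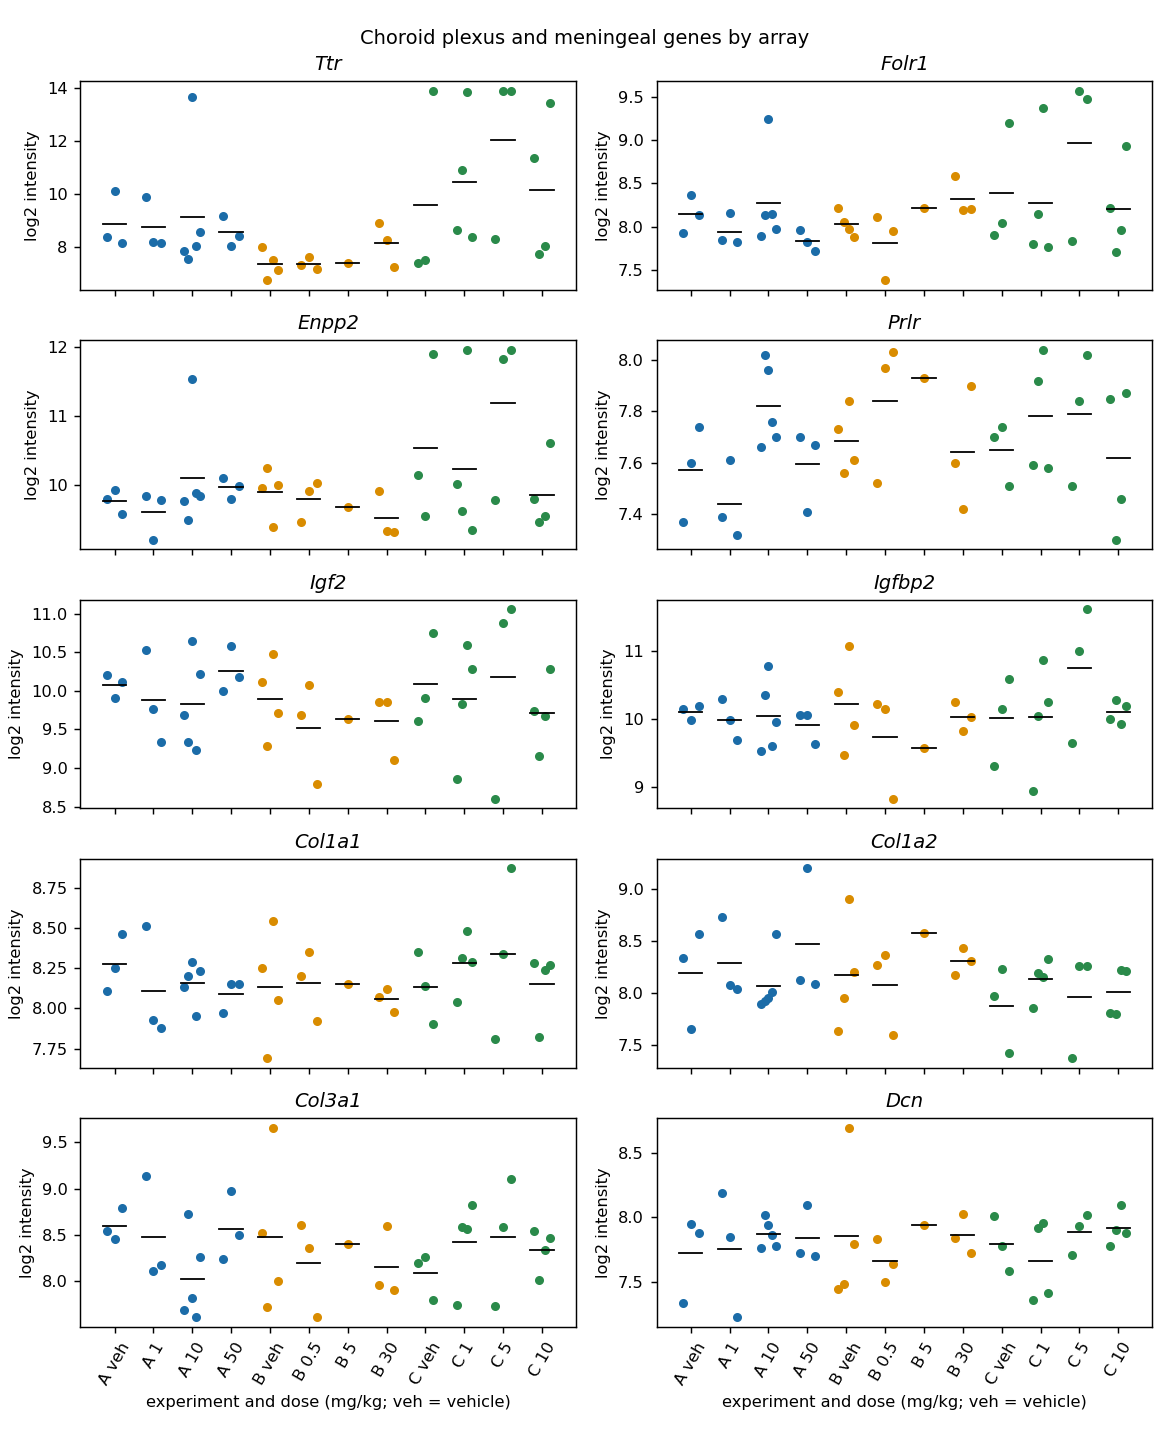
Log2 normalised intensity of the 10 genes on each array (points) with the group mean (black line), by experiment and dose in mg/kg (blue A, amber B, green C). The 6 high Ttr arrays, at 13.43 to 13.92, are also the highest Folr1 and Enpp2 arrays.

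Folr1, the folate receptor that carries folate across the plexus, was high on the same 6 arrays. It read 8.93, 9.31 and 9.57 (lowest, median, highest) on them, against 7.38, 7.97 and 8.58 on the other 33. The ranges did not overlap. Enpp2 encodes autotaxin, the secreted enzyme that makes lysophosphatidic acid, and oligodendrocytes make it too. It read 10.61, 11.86 and 11.96 on the 6 arrays, against 9.21, 9.80 and 10.25 on the others, again with no overlap. Enpp2 was lowest of the 6 in 10 mg/kg animal 4 of C (10.61), where Ttr and Folr1 were lowest too. On the 4 arrays with the next highest Ttr, Folr1 was 7.85 to 8.37 and Enpp2 9.63 to 9.93, within the ranges of the remaining arrays. These splits describe arrays separated by Ttr itself and carry no test. The share of all probe sets without overlap on these arrays was not counted.

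Prlr, the receptor through which the plexus binds prolactin, has 3 probe sets. The brightest read 7.51, 7.91 and 8.04 on the 6 arrays, against 7.30, 7.66 and 8.03 on the others, and the ranges overlapped almost wholly. A second read 6.89, 7.19 and 7.48 against 6.18, 6.80 and 7.23. The third, too dim to be tested, read 6.45, 6.79 and 7.53 against 3.41, 5.36 and 6.59, with 1 of the 33 arrays above the lowest of the 6. The probe sets of this gene therefore gave different separations, and which transcripts each detects was not examined.

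Igf2, the growth factor that both plexus and meninges make, and Igfbp2, an IGF-binding protein of plexus epithelium and meninges, lay between the 2 kinds. Igf2 read 10.28, 10.70 and 11.06 on the 6 arrays, against 8.60, 9.76 and 10.58 on the others, of which 3 lay above 10.28. Igfbp2 read 10.19, 10.82 and 11.61 against 8.83, 10.00 and 11.07, and 8 of the 33 lay above 10.19. Below the gap 2 arrays lay above the lowest of the 6 for both genes, and both of them had Col1a1 above 8.5. Arrays above it for only 1 of the genes did not. The highest Igf2 below the gap, 10.58 in animal 3 at 50 mg/kg in A, came with Col1a1 at 8.15. Those with Igfbp2 alone above 10.19 had Col1a1 at 7.82 to 8.29. Animal 1 at 1 mg/kg in A had Igf2 at 10.53 and Igfbp2 at 10.29 with Ttr at 9.90, Col1a1 at 8.51 and Col3a1 at 9.14. Vehicle animal 3 of B had Igf2 at 10.48 and Igfbp2 at 11.07 with Ttr at 7.51. The 3 further Igf2 probe sets lay at or near the floor, with medians of 3.41 to 3.60, and were not tested.

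The collagens and decorin did not separate along the Ttr gap. Col1a1 and Col1a2 encode the chains of type I collagen. Col1a1 read 7.90, 8.31 and 8.87 on the 6 arrays, against 7.69, 8.15 and 8.54 on the others. Col1a2 read 7.42, 8.18 and 8.26 against 7.37, 8.17 and 9.20, so that its highest arrays lay below the gap. Col3a1, the type III chain, read 7.80, 8.51 and 9.10 against 7.61, 8.34 and 9.66. Dcn, the proteoglycan decorin that binds collagen fibrils, read 7.58, 7.93 and 8.02 against 7.22, 7.79 and 8.70. Arrays below the gap led Col3a1, Dcn and Col1a2. Vehicle animal 3 of B was highest for Col3a1 (9.66) and Dcn (8.70) and had Col1a1 at 8.54. Animal 3 at 50 mg/kg in A was highest for Col1a2 (9.20). Col1a1 was highest in 5 mg/kg animal 4 of C (8.87), which is among the 6. By the second probe sets of Col1a1 and Col1a2, vehicle animal 3 of B was highest for both (8.74 and 9.36), so the leading array depends on the probe set. Vehicle animal 3 of C had Ttr at 13.92 but Col1a1 at 7.90 and Col1a2 at 7.42.

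**Figure D2:**
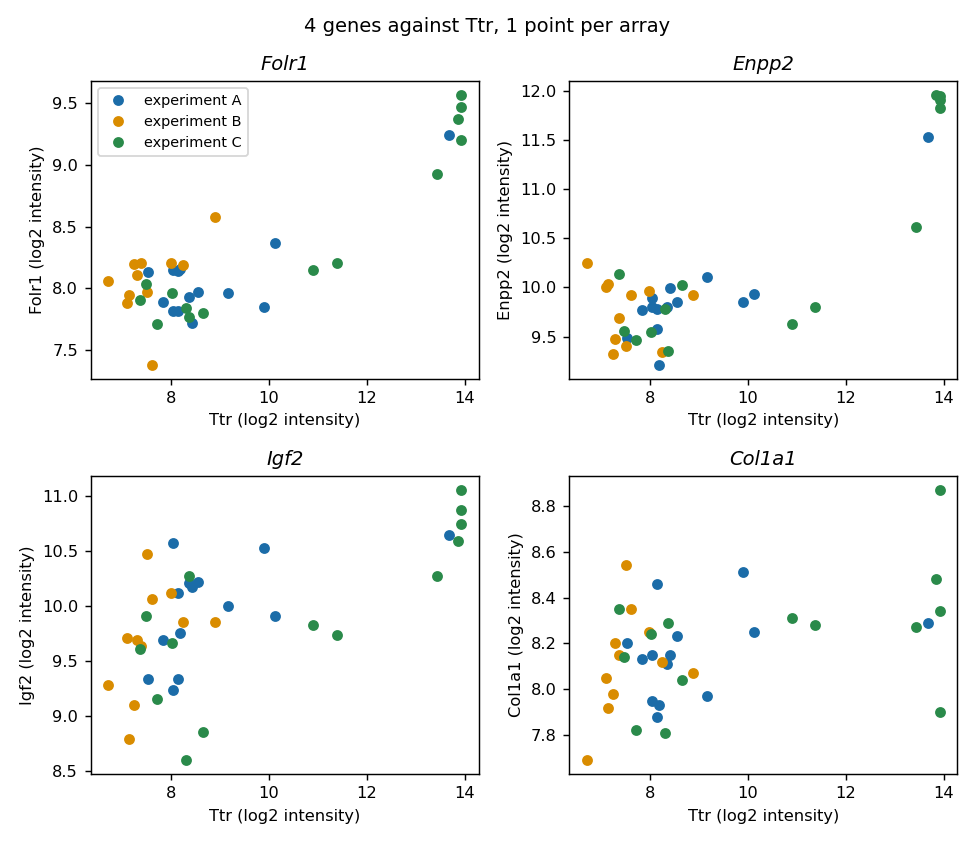
Folr1, Enpp2, Igf2 and Col1a1 against Ttr, all as log2 normalised intensity, 1 point per array (blue A, amber B, green C). Folr1 and Enpp2 stand apart on the 6 arrays at a Ttr of 13.43 or higher, Igf2 overlaps with 3 of the 33 others, and Col1a1 overlaps widely.

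Which genes follow Ttr and which follow Col1a1 was asked in 1 limma fit per probe set, with both anchors, experiment and dose as terms. A slope is the log2 change per SD of the anchor within experiments, which was 1.90 for Ttr and 0.23 for Col1a1. A tendency of the anchors to rise together did not pass, and it depended on the Col1a1 probe set. Over the 39 arrays Ttr and Col1a1 had a Pearson's r of 0.39 and a Spearman's rho of 0.45 (permutation, adjusted p = 0.271 and 0.16). Within A, B and C r was 0.35, 0.35 and 0.46, and below the gap it was 0.33. For the second Col1a1 probe set, r with Ttr below the gap was 0.04, and 0.35, 0.22 and -0.27 within A, B and C there. Its median was 7.30 on the 6 arrays and 7.49 on the others. With Col1a1 held, Folr1 rose with Ttr by 0.42 ± 0.04 (SE, adjusted p = 5.51e-08), Enpp2 by 0.62 ± 0.07 (adjusted p = 3.89e-07) and Igf2 by 0.30 ± 0.06 (adjusted p = 0.0044). These are 3 of 8 tested genes, where 44 of 11104 probe sets passed (0.396%), 25 of them upward (0.225%). Igfbp2 had a slope of 0.23 ± 0.07 (adjusted p = 0.164) and Prlr one of 0.05 ± 0.04 (adjusted p = 0.702), with 0.12 ± 0.04 (0.261) for its second probe set. The slopes of Col1a2, Col3a1 and Dcn were -0.10, -0.07 and -0.02, with adjusted p of 0.524, 0.71 and 0.92, and the second probe sets of Col1a1 and Col1a2 had -0.14 (0.486) and -0.18 (0.246).

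With Ttr held, Col3a1 rose with Col1a1 by 0.39 ± 0.05 (limma, adjusted p = 0.000125), Igf2 by 0.29 ± 0.05 (adjusted p = 0.0121) and Col1a2 by 0.25 ± 0.05 (adjusted p = 0.0243). These are again 3 of 8, where 44 of 11104 probe sets passed (0.396%), 35 of them upward (0.315%). Dcn had a slope of 0.16 ± 0.04 (adjusted p = 0.113), Igfbp2 one of 0.23 ± 0.07 (adjusted p = 0.152) and Prlr one of 0.07 (adjusted p = 0.434). Folr1 and Enpp2 had slopes of -0.02 and -0.09, with adjusted p of 0.894 and 0.654. The second probe sets of the collagens gave the same side of the threshold: Col1a1's rose by 0.42 (adjusted p = 0.00153) and Col1a2's by 0.44 (adjusted p = 0.000125).

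**Figure D3:**
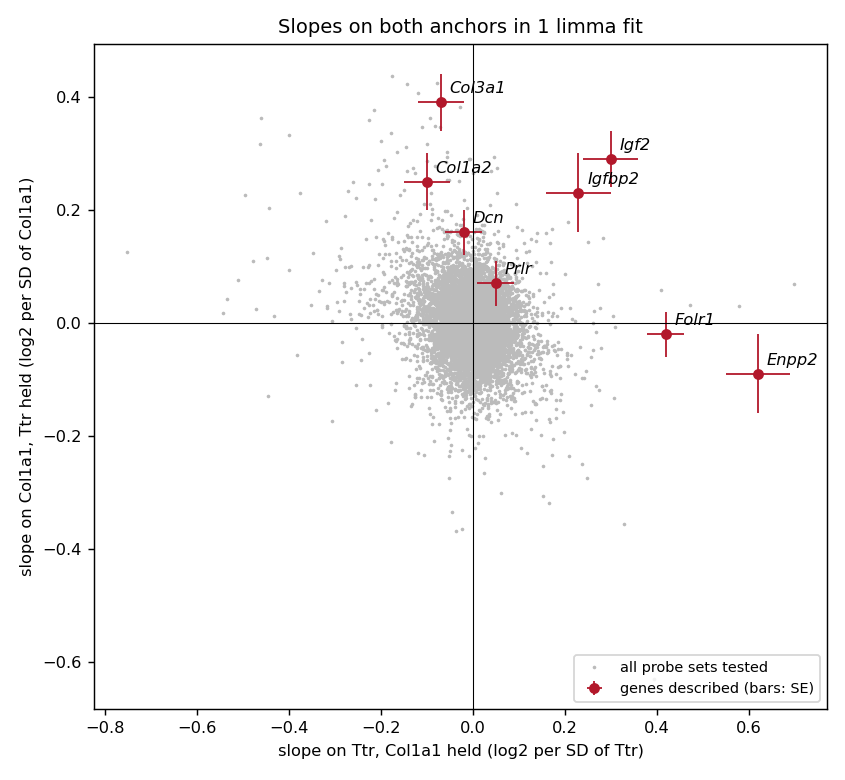
Slope on Ttr (x axis) and on Col1a1 (y axis), each with the other held, in log2 per SD of the anchor, for 8 genes (red, bars are SE) over all probe sets tested (grey). Folr1 and Enpp2 lie along the Ttr axis, Col3a1, Col1a2 and Dcn along the Col1a1 axis, and Igf2 and Igfbp2 between them.

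The difference between the slopes was tested in the same fit, chosen after the values were seen. Folr1 followed Ttr more than Col1a1 by 0.44 ± 0.07, and Enpp2 by 0.70 ± 0.11 (limma, adjusted p = 0.00172 for each). Col3a1 followed Col1a1 more, with a difference of -0.46 ± 0.09 (adjusted p = 0.0124). These are 3 of 8 genes, where 15 of 11104 probe sets passed (0.135%), 7 on the side of Ttr (0.063%) and 8 on that of Col1a1 (0.072%). Igf2 had a difference of 0.01 ± 0.09 (adjusted p = 0.995) and Igfbp2 one of 0.00 ± 0.12 (adjusted p = 0.997), which does not show that they follow both alike. Col1a2 and Dcn had differences of -0.35 and -0.18 (adjusted p = 0.134 and 0.548), while the second Col1a2 probe set passed at -0.61 (adjusted p = 0.00259). The call of Col3a1 was lost with the second Col1a1 probe set as anchor, where the difference was -0.29 (adjusted p = 0.118). It was also lost without experiment A (0.264), B (0.189) or C (0.0516), without animal 3 at 10 mg/kg in A (0.0705) and without vehicle animal 3 of C (0.0612). Folr1 did not pass without A (0.0749) or C (0.115), nor Enpp2 without A (0.0749) or B (0.127). With normal scores of both anchors 0 of the genes passed (adjusted p = 0.974 for Folr1, 0.888 for Enpp2 and 0.351 for Col3a1).

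The Ttr slopes rest on the 6 arrays. Within the 33 others limma called 0 of the probe sets, and Folr1, Enpp2 and Igf2 had slopes of 0.20, 0.20 and 0.05 (adjusted p = 0.497, 0.563 and 0.948). Across those 33 arrays Pearson's r with Ttr was 0.40 for Folr1, with a permutation p adjusted over all probe sets of 0.639 and Spearman's rho of 0.29, and 0.25 without the 2 arrays farthest from the Ttr median. It was 0.10 for Enpp2 and 0.30 for Igf2. The Igf2 slope on Ttr did not pass without vehicle animal 3 of C (0.23, adjusted p = 0.189), without the 2 arrays farthest from the Ttr median (0.18, adjusted p = 0.51), or without experiment A (adjusted p = 0.0651) or C (0.959). Without C the slope of Folr1 had an adjusted p of 0.0574, but Folr1 and Enpp2 passed in all 39 fits that each left out 1 array. With both anchors turned into normal scores, which removes the width of the gap, Folr1, Enpp2 and Igf2 each had an adjusted p of 0.113.

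Col1a1 showed no such gap, its largest step being 0.32. Across the 39 arrays Pearson's r with Col1a1 was 0.76 for Col3a1 and 0.68 for Igf2, both with an adjusted permutation p of 0.0159, where 62 of 11105 probe sets passed (0.558%). Spearman's rho for Col3a1 was 0.72 (adjusted permutation p = 0.0444). Within experiments A, B and C, r for Col3a1 was 0.56, 0.87 and 0.88, and for Igf2 0.60, 0.83 and 0.66. Igfbp2 (0.60), Col1a2 (0.53) and Dcn (0.50) had adjusted permutation p of 0.0522, 0.0555 and 0.088. Without the 2 arrays farthest from the Col1a1 median, r was 0.73 for Col3a1 and 0.63 for Igf2. The slope of Col3a1 on Col1a1 passed in all 39 fits without 1 array. That of Col1a2 did not without vehicle animal 3 (adjusted p = 0.0791) or 0.5 mg/kg animal 4 (0.0562) of B, or vehicle animal 3 (0.0584) or 5 mg/kg animals 1 (0.131) or 4 (0.0558) of C. It did not pass without experiment A (0.206), B (0.114) or C (0.314) either. That of Igf2 did not without 5 mg/kg animals 1 (0.0897) or 4 (0.0558) of C, without A (0.189) or B (0.136), or without the 2 arrays farthest from the Col1a1 median (0.0902).

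**Figure D4:**
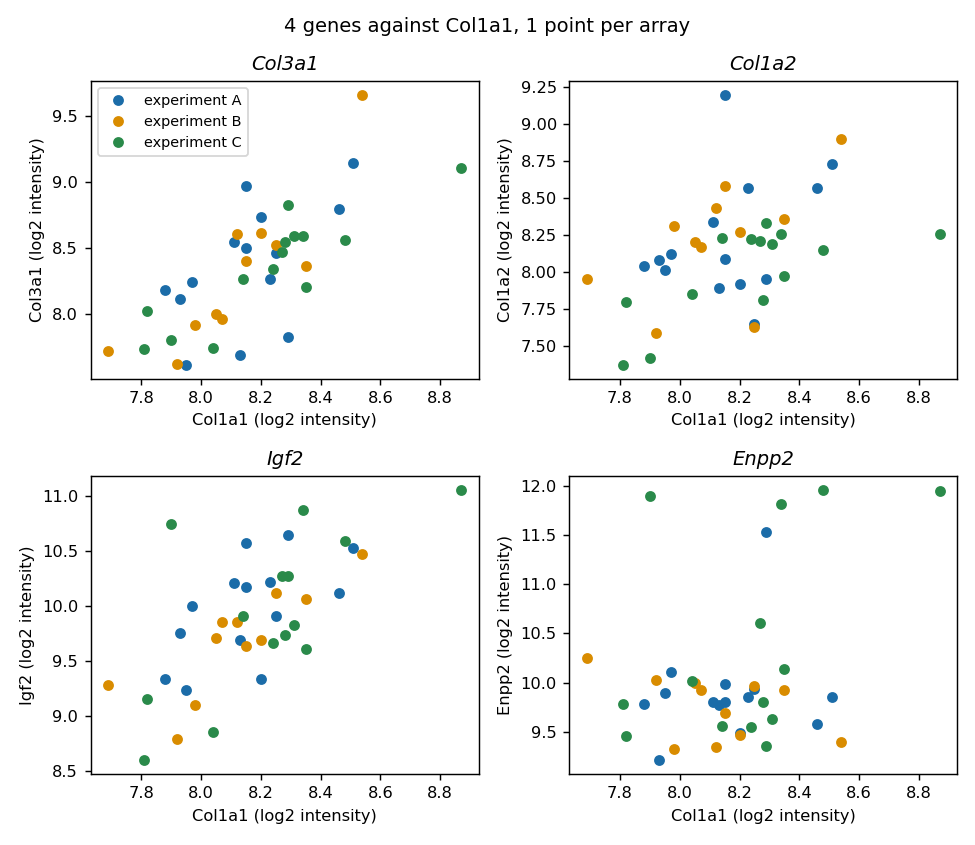
Col3a1, Col1a2, Igf2 and Enpp2 against Col1a1, all as log2 normalised intensity, 1 point per array (blue A, amber B, green C). Col3a1 and Igf2 rise along Col1a1 in each experiment, and Enpp2 is high on 6 arrays across its range.

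Other genes of the same tissues were counted from lists chosen with earlier results of these data known. Of 33 listed choroid plexus genes outside the 10, 23 had a probe set and 16 were bright enough to be tested (mean of 6.87 or higher). Of these 16, 8 rose with Ttr, where 0.225% of all probe sets did (median slope 0.18, against 0.00 over all probe sets). On Col1a1 0 of them were called (median 0.04). The mean was taken over all arrays used, those with high Ttr included. The lowest median of a gene among the 16 was 6.83 below the gap, under that cut, and 7.85 above the gap. Which genes would be tested without the high Ttr arrays was not examined, so the share of 8 in 16 may depend on them. The count of 8 was 3 without vehicle animal 3 of C, 4 without 1 mg/kg animal 3 of C, 5 without 10 mg/kg animal 3 of A and 1 without the 2 arrays farthest from the Ttr median. It was 4 without experiment A, and 0 without experiment C, with normal scores or below the gap. Sostdc1, a secreted BMP and Wnt antagonist, rose by 0.70 (limma, adjusted p = 5.51e-08), Mfrp, a membrane frizzled-related protein, by 0.58 (0.000136), Msx1, a homeobox factor, by 0.47 (0.00284), and Ace, angiotensin-converting enzyme, by 0.41 (0.0351). The mean level of the 16 was 9.06 to 9.74 on the 6 arrays and 8.23 to 8.72 on the others. Of 38 tested meningeal genes, 10 rose with Col1a1, where 0.315% of all probe sets did (median 0.16), among them Ogn and Fmod, small leucine-rich proteoglycans like decorin, at 0.35 and 0.32, the gap junction protein Gjb2 at 0.27 and the intermediate filament Vim at 0.29 (adjusted p of 0.00995, 0.0173, 0.00587 and 0.0348). The count of 10 was 0 without 1 array, 5 mg/kg animal 4 of C. It was 2 without 5 mg/kg animal 1 of C, and 5 and 6 without vehicle animal 3 and 0.5 mg/kg animal 4 of B. It was 0, 1 and 4 without experiment A, B or C, and 1 without the 2 arrays farthest from the Col1a1 median. On Ttr 0 of the 38 rose and 1 fell, Gjb2, by 0.21 (adjusted p = 0.0483). Their mean level overlapped, at 8.11 to 8.65 and 7.97 to 8.81.

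Genes that work with the members were counted in the same way. Of 13 collagen partners 3 rose with Col1a1: Fmod, the proteoglycan Bgn at 0.16 (adjusted p = 0.0312) and the collagen chaperone Serpinh1 at 0.16 (0.0274). Fmod and Bgn are also on the meningeal list and were already counted there. Of 8 smooth muscle and pericyte genes, only the smooth muscle myosin Myh11 did, at 0.16 (0.0279). Without 5 mg/kg animal 4 of C the calls on Col1a1 over all probe sets were 4 in place of 44. Of 9 IGF system genes and 11 ligand partners 0 were called on either slope. The same was so for ependyma (4 genes), endothelium (12), blood (3), oligodendrocytes and myelin (7), astrocytes (9), microglia (9), hypothalamus (3), striatum (8) and cortex neurons (6). Genes of oligodendrocytes, cells that also make Enpp2, had a median slope on Ttr of 0.13, and their mean level was 11.41 to 12.17 on the 6 arrays and 10.85 to 12.02 on the others. Ependymal genes were at 8.05 to 8.42 and 7.54 to 8.33. The part of these cells in the results was not tested.

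Outside the 10, the 8 genes most like Ttr by Pearson's r over the 39 arrays were Sostdc1, Slc4a2, Pla2g5, Mfrp, Mdk, Slco1a5, Slc31a1 and Msx1. Their r, 0.75 to 0.90, is set by the 6 arrays, and within the 33 others it was 0.06 to 0.47. The 8 most like Col1a1 were Itgb4, Dab2, Tnfaip1, Mtfr1l, Cd74, Fkbp9, Bgn and Bmp7, with r of 0.63 to 0.72, and of 0.50 to 0.72 within the 33. Signs of RNA quality overlapped between the arrays. The 3' to 5' ratio of beta-actin was 1.23 to 1.83 on the 6 arrays, against 1.24 to 4.72 on the others, and that of Gapdh 1.02 to 1.34, against 1.01 to 2.42. Both highest ratios came from 1 array, 1 mg/kg animal 1 of C, and the next highest beta-actin ratio was 2.15. That array also had the lowest median correlation of those used, 0.9424, with Igf2 at 8.86 and Igfbp2 at 8.95. The part of RNA quality in these levels was not tested.

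Whether the genes differed from vehicle by dose was asked next, each dose against vehicle with experiment as a term. In limma 0 of the 10 genes were called at any of the 6 doses, in the test for any dose or in the trend over log2(dose + 1), and 0 of them had an unadjusted p under 0.05 in any of these tests. Over all 11106 probe sets the calls were 0 at 0.5, 1, 5, 10 and 30 mg/kg (0%) and 2 at 50 mg/kg (0.018%). At an unadjusted p under 0.05 there were 847, 281, 278, 297, 1029 and 889 probe sets from the lowest dose to the highest, 688 for any dose and 852 for the trend. The Ttr change was 0.33 ± 1.43, 0.19 ± 1.04, 1.58 ± 1.19, 0.21 ± 0.99, 1.10 ± 1.43 and -0.27 ± 1.41 at 0.5, 1, 5, 10, 30 and 50 mg/kg (SE). All these changes lay within 1.5 times their SE.

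In each dosed group against the vehicle of its own experiment limma also called 0 of the 10, where the most probe sets called were 4 (0.036%, A at 50 mg/kg), 2 (0.018%, B at 5 mg/kg, a single array) and 1 (0.009%, A at 10 mg/kg). Between 322 and 1130 probe sets per group were under an unadjusted 0.05.

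In experiment A, Ttr read log2 levels of 8.14, 8.36 and 10.13 in vehicle, 8.15, 8.19 and 9.90 after 1 mg/kg, 7.53, 7.84, 8.04, 8.55 and 13.68 after 10 mg/kg, and 8.04, 8.42 and 9.17 after 50 mg/kg. In B the arrays of Ttr were 6.72, 7.10, 7.51 and 7.99 in vehicle, 7.15, 7.30 and 7.61 after 0.5 mg/kg, 7.38 after 5 mg/kg, and 7.25, 8.24 and 8.89 after 30 mg/kg. In C Ttr stood at 7.37, 7.48 and 13.92 in vehicle, 8.37, 8.65, 10.90 and 13.85 after 1 mg/kg, 8.31, 13.92 and 13.92 after 5 mg/kg, and 7.71, 8.02, 11.38 and 13.43 after 10 mg/kg. Every dosed group overlapped the vehicle of its experiment, and only A and C hold arrays above 9.

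In experiment A, Folr1 read 7.93, 8.14 and 8.37 in vehicle, 7.82, 7.85 and 8.16 after 1 mg/kg, 7.89, 7.97, 8.13, 8.15 and 9.24 after 10 mg/kg, and 7.72, 7.82 and 7.96 after 50 mg/kg. In B the arrays of Folr1 were 7.88, 7.97, 8.06 and 8.21 in vehicle, 7.38, 7.95 and 8.11 after 0.5 mg/kg, 8.21 after 5 mg/kg, and 8.19, 8.20 and 8.58 after 30 mg/kg. In C Folr1 stood at 7.91, 8.04 and 9.20 in vehicle, 7.77, 7.80, 8.15 and 9.37 after 1 mg/kg, 7.84, 9.47 and 9.57 after 5 mg/kg, and 7.71, 7.96, 8.21 and 8.93 after 10 mg/kg. Every dosed group overlapped the vehicle of its experiment, and the 6 highest values are those of the high Ttr arrays.

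In experiment A, Enpp2 read 9.58, 9.80 and 9.93 in vehicle, 9.21, 9.78 and 9.85 after 1 mg/kg, 9.49, 9.77, 9.85, 9.89 and 11.53 after 10 mg/kg, and 9.80, 9.99 and 10.11 after 50 mg/kg. In B the arrays of Enpp2 were 9.40, 9.96, 10.00 and 10.25 in vehicle, 9.47, 9.92 and 10.03 after 0.5 mg/kg, 9.69 after 5 mg/kg, and 9.32, 9.34 and 9.92 after 30 mg/kg. In C Enpp2 stood at 9.56, 10.14 and 11.90 in vehicle, 9.35, 9.63, 10.02 and 11.96 after 1 mg/kg, 9.78, 11.82 and 11.95 after 5 mg/kg, and 9.46, 9.55, 9.80 and 10.61 after 10 mg/kg. The dosed groups overlapped their vehicle animals, and in B, where no array is above the gap, all values lie between 9.32 and 10.25.

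In experiment A, Igf2 read 9.91, 10.12 and 10.21 in vehicle, 9.34, 9.76 and 10.53 after 1 mg/kg, 9.24, 9.34, 9.69, 10.22 and 10.65 after 10 mg/kg, and 10.00, 10.18 and 10.58 after 50 mg/kg. In B the arrays of Igf2 were 9.28, 9.71, 10.12 and 10.48 in vehicle, 8.79, 9.69 and 10.07 after 0.5 mg/kg, 9.64 after 5 mg/kg, and 9.10, 9.86 and 9.86 after 30 mg/kg. In C Igf2 stood at 9.61, 9.91 and 10.75 in vehicle, 8.86, 9.83, 10.28 and 10.59 after 1 mg/kg, 8.60, 10.88 and 11.06 after 5 mg/kg, and 9.16, 9.67, 9.74 and 10.28 after 10 mg/kg. Within C at 5 mg/kg Igf2 took both its lowest and its highest value of the study.

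In experiment A, Col1a1 read 8.11, 8.25 and 8.46 in vehicle, 7.88, 7.93 and 8.51 after 1 mg/kg, 7.95, 8.13, 8.20, 8.23 and 8.29 after 10 mg/kg, and 7.97, 8.15 and 8.15 after 50 mg/kg. In B the arrays of Col1a1 were 7.69, 8.05, 8.25 and 8.54 in vehicle, 7.92, 8.20 and 8.35 after 0.5 mg/kg, 8.15 after 5 mg/kg, and 7.98, 8.07 and 8.12 after 30 mg/kg. In C Col1a1 stood at 7.90, 8.14 and 8.35 in vehicle, 8.04, 8.29, 8.31 and 8.48 after 1 mg/kg, 7.81, 8.34 and 8.87 after 5 mg/kg, and 7.82, 8.24, 8.27 and 8.28 after 10 mg/kg. Every dosed group overlapped its vehicle.

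In experiment A, Col3a1 read 8.46, 8.54 and 8.79 in vehicle, 8.11, 8.18 and 9.14 after 1 mg/kg, 7.61, 7.69, 7.82, 8.26 and 8.73 after 10 mg/kg, and 8.24, 8.50 and 8.97 after 50 mg/kg. In B the arrays of Col3a1 ran between 7.72 and 9.66 in the 4 vehicle animals and were 7.62, 8.36 and 8.61 after 0.5 mg/kg, 8.40 after 5 mg/kg, and 7.91, 7.96 and 8.60 after 30 mg/kg. In C Col3a1 stood at 7.80, 8.20 and 8.26 in vehicle, 7.74, 8.56, 8.59 and 8.82 after 1 mg/kg, 7.73, 8.59 and 9.10 after 5 mg/kg, and 8.02, 8.34, 8.47 and 8.54 after 10 mg/kg. The highest value of each experiment was on a 1 mg/kg array in A, a vehicle array in B and a 5 mg/kg array in C.

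At 5 mg/kg 10 of 10 genes were on the higher side (median 0.16, against 50.1% of all probe sets and a median of 0.00), but none passed. Igf2 is counted among them at 0.01 ± 0.35. Within C 10 of 10 were higher (median 0.30), and within B, from 1 array, 6 of 10 (median 0.04). In the C group animals 3 and 4 were high Ttr arrays (13.92 each). Some of these genes rose together across arrays, so their directions are not independent. The difference from vehicle was 0.49 ± 0.29 for Folr1 and 0.55 ± 0.43 for Enpp2. The Ttr difference at 5 mg/kg within C was 2.46 ± 1.62, and in B, from 1 array at 7.38 against vehicle at 6.72 to 7.99, it was 0.05 ± 2.22. Col1a2 at 50 mg/kg read 8.09, 8.12 and 9.20, against 7.65, 8.34 and 8.57 in the vehicle of A, a difference within A of 0.29 ± 0.31 (limma, adjusted p = 0.838). Col3a1 within C was 0.39 ± 0.38 at 5 mg/kg and within A -0.58 ± 0.34 at 10 mg/kg, and neither passed.

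Of the other members, Prlr ran from 7.32 to 8.02 in A, 7.42 to 8.03 in B and 7.30 to 8.04 in C, Igfbp2 from 9.53 to 10.78, 8.83 to 11.07 and 8.95 to 11.61, Col1a2 from 7.65 to 9.20, 7.59 to 8.90 and 7.37 to 8.33, and Dcn from 7.22 to 8.19, 7.44 to 8.70 and 7.36 to 8.10. Among all 10 genes, 1 dosed group lay outside the range of its vehicle, the single 5 mg/kg array of B for Prlr (7.93, against 7.56 to 7.84). The share of all probe sets that lie outside in this way was not counted. A single array can fall outside a range easily, so this value is not read as a result about Prlr.

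The 5 mg/kg group of B is 1 array, so the SE of its effect comes from the spread within the other groups, and the array is assumed to vary as they do. It was also the dimmest array used, with a mean intensity, trimmed by 2%, of 205.2 against 500.1 on each of the others. The 1 and 10 mg/kg effects in C minus those in A, and the 5 mg/kg effect in C minus that in B, called 0 of the 10 genes and 0 of 11106 probe sets (815, 735 and 1126 at an unadjusted p under 0.05). With dose as a factor, limma's F test for experiment called 3293 of 11106 probe sets (29.7%) and 0 of the 10 genes, of which 1, Ttr, was under an unadjusted 0.05 (adjusted p = 0.0809). Ttr means were 8.87 in A, 7.56 in B and 10.52 in C. Among vehicle arrays alone 861 probe sets (7.75%) and 0 of the 10 genes were called, and none of the 10 was under an unadjusted 0.05.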

How the data were processed

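The deposited table holds 1 linear signal intensity per probe set and array, made by the authors with software not given in the sources used here, and no detection calls. Total RNA was extracted with Qiagen columns and labelled with biotin, per the labels' protocols. Of 46 columns, 39 were used and 7 left out, their median log2 correlation with the others being under 0.5. Each array was divided to a common median, values under the 5th percentile (10.7) were raised to it, and log2 values were quantile normalized. Probe sets with a mean under the 30th percentile (6.87) were dropped, which left 11106 of 15866, and 13 of the members' 17. Tests were two-sided limma 3.58.1 fits (R 4.3.3, eBayes with trend=TRUE), Benjamini-Hochberg adjusted over all probe sets at 0.05, and tested on simulated data. Both anchors were left out of the slope fits. Correlations used 100000 permutations within experiment, with values centred by experiment (smallest p 1e-05, python 3.11.15, scipy 1.17.1). Because Ttr had a gap over 1.5, its r was tested apart on each side of it. On the 6 arrays above it, the values are fixed by rank. There r was 0.96 for Enpp2, 0.86 for Igf2 and 0.84 for Folr1 (exact permutation, unadjusted p = 0.0667, 0.05 and 0.0833). The other genes had r of -0.22 to 0.71. With Col1a1 as anchor, Ttr was also tested over all 39 arrays. Named are the 10 members, the 8 genes most like each anchor, and up to 4 genes per list past the threshold. The members and lists were chosen with earlier results of these data known. Deviations from group means over all tested probe sets were correlated between animals of 1 experiment. Animals that share a number had a median of 0.00352 (-0.394 to 0.299, 43 pairs). In 135 other pairs the median was 0.00293 (-0.38 to 0.375). A median over all probe sets cannot exclude a shared order of handling. The reported fits do not pair the animals. Alternatives were the normalization, floor, dim filter, variance trend, replicate block, anchors, and leaving out experiments or single arrays. The difference of slopes, the experiment test and the fits below the gap were added after the values were seen.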

Additional observations from a re-analysis of the deposited data

Results flagged for a closer look

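In groups of 4 or 5 arrays, 5 of 40 values examined stood far from the rest of their group by Dixon's test, which chance does in about 1 in 20 groups. Animal 3 at 10 mg/kg in A accounts for 3: Ttr at 13.68 (the other 4 at 7.53 to 8.55), Folr1 at 9.24 (7.89 to 8.15) and Enpp2 at 11.53 (9.49 to 9.89). Col1a1 was low in 10 mg/kg animal 2 of C, at 7.82 (8.24 to 8.28), an array labelled as a first repeat. Col1a2 was high in 10 mg/kg animal 5 of A, at 8.57 (7.89 to 8.01).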

How the results depend on the processing

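Folr1, Enpp2 and Igf2 rose with Ttr in 12, 13 and 9 of 15 other settings, and Col3a1, Igf2 and Col1a2 with Col1a1 in 15, 11 and 10 of 15. The cause of the changes below was not tested except where fewer arrays or genes enter by construction. Probe sets called with Ttr (44 as reported) were 16, 29 and 2 without experiment A, B or C, 21 without the first repeats, 0 with normal scores of both anchors, 100 with Ttr alone, 6 without the 2 arrays farthest from the Ttr median, 98 with the second Col1a1 probe set as anchor and 0 in the 33 arrays below the gap, a setting added after seeing the data. Of the 10 genes 1 was called with Ttr without C, and 0 with normal scores or below the gap. With normal scores Folr1 and Enpp2 had an adjusted p of 0.113 in limma, and without C Folr1 had 0.0574. Igfbp2 passed on Ttr with Ttr alone (adjusted p = 0.0249) or the second Col1a1 probe set (0.0017). Probe sets called with Col1a1 (44) were 108 with median scaling only, 2, 10 and 14 without A, B or C, 21 with normal scores, 119 with Col1a1 alone, 10 without the 2 arrays farthest from the Col1a1 median, 26 with the second probe set and 11 below the gap; 1 gene was called without A and 1 without B. For the difference of slopes (15) they were 0, 4 and 4 without A, B or C, 0 with normal scores, 23 with the second probe set and 0 below the gap, with 0, 1 and 1 genes without A, B or C and 0 with normal scores or below the gap. Slopes not past the threshold changed sign: Col3a1 on Ttr to 0.08 with Ttr alone and 0.06 with the second probe set; Dcn on Ttr to 0.01 without the first repeats, 0.04 with Ttr alone and 0.03 with the second probe set; Folr1 on Col1a1 to 0.02 without B, 0.01 with normal scores and 0.14 with Col1a1 alone; Enpp2 on Col1a1 to 0.15 with Col1a1 alone; Prlr on Col1a1 to -0.01, and its difference to 0.09, with the second probe set; and the Igf2 difference to -0.10 without C, -0.01 without a dose term and -0.33 below the gap. For dose, calls with no filter on dim probe sets were 2 at 0.5, 11 at 30 and 0 at 50 mg/kg. At 30 mg/kg they were 1 without A and 6 without C; at 50 mg/kg 1 with median scaling only, 0 without B and 66 without C; for any dose 19 without C; for the trend 1 without B and 94 without C. None of these were among the 10 genes. The Ttr change at 1 mg/kg was -0.13 without C and -0.40 without the first repeats. Without those repeats 1 of the 10 genes was called between experiments and 533 probe sets among vehicle arrays. The labels do not say what an animal number shared between groups means. With that number as a replicate block, calls were 0 at 50 mg/kg, 114 for experiment, 6 with Ttr, 2 with Col1a1 and 0 for the difference. In that setting 1 of the genes was called with Col1a1 and 0 for the difference. Ttr at 1 mg/kg was -0.04 and Folr1 on Col1a1 0.05.

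Leaving out 1 array at a time, probe sets called ranged from 0 to 5 at 0.5 mg/kg, 0 to 3 at 30 mg/kg, 0 to 4 at 50 mg/kg, 0 to 1 for any dose, 0 to 2 for the trend, 267 (without C vehicle animal 3) to 929 among vehicle arrays, 10 (without C vehicle animal 3) to 81 (without C vehicle animal 1) with Ttr, 4 (without C 5 mg/kg animal 4) to 57 with Col1a1, and 7 (without A 10 mg/kg animal 3 or C vehicle animal 3) to 27 (without C vehicle animal 1) for the difference. Of the 10 genes 0 to 1 was called between experiments and 1 to 3 with Col1a1. Ttr changes ranged from -0.42 to 0.92 at 1 mg/kg, -0.35 to 0.89 at 10 mg/kg and -0.62 to 0.24 at 50 mg/kg, Dcn from -0.30 to 0.04 at 0.5 mg/kg, the Prlr difference from -0.04 to 0.01 and the Igf2 difference from -0.12 to 0.06. The Col3a1 difference lost its call without A 10 mg/kg animal 3 (limma, adjusted p = 0.0705) or C vehicle animal 3 (0.0612). Signal over background was not given, so dim probe sets were judged by mean level alone.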
